A study of Mus musculus with 6 samples.

Results

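Of the genes that mark lipid-associated macrophages, the state of macrophages that depends on the lipid receptor TREM2, 10 were followed here: Trem2, Tyrobp, Gpnmb, Spp1, Fabp5, Lpl, Cd9, Cd63, Lgals3 and Apoe. They were chosen by name, with earlier results of these data known, and all 10 were found among the 46603 genes counted. Counts of these genes set beside the share of all genes are therefore a description, as are those of the lists around them. RNA-Seq had been performed on CD11B+ cells of injured mouse kidneys, selected with magnetic beads, in 6 libraries. PTEC DN RAR mice (3 libraries) were PEPCK CRE+ and carried the allele Rosa26-LSL-RARaT403X, from which Cre switches on a truncated, dominant negative RARα that blocks retinoic acid receptors (RARs). PEPCK drives Cre in proximal tubular epithelial cells (PTECs). Cre– controls (3 libraries) were PEPCK CRE- and carried the same silent allele. No source used here says whether each library is 1 mouse, so the p-values measure the spread between these libraries. Values given below for Cre– controls or PTEC DN RAR mice are likewise those of libraries. All mice were males of 10 to 12 weeks, and in both genotypes both renal pedicles had been clamped for 28 minutes (IRI-AKI) and kidneys taken on day 3. The promoter is that of a tubule gene, while the cells sequenced were CD11B+, and neither group has uninjured mice here. The comparison asks how blocking RAR signaling in the tubule changes RNA of the CD11B+ fraction of the injured kidney. Besides macrophages, the authors name NK cells, granulocytes and B cells among CD11B+ cells.

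TREM2 is a surface receptor of macrophages that binds phospholipids, lipoproteins and debris of dying cells. It has no signaling tail of its own and passes its signal through the adaptor DAP12, the product of Tyrobp, to the kinase SYK. Macrophages that have taken up much lipid or many dying cells, in adipose tissue, atherosclerotic plaques, scarred liver, degenerating brain and injured kidney, share a program of lipid binding, lipid export, lysosomal digestion and secreted matrix proteins, and these 10 genes are among its common markers.

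The libraries held between 29318041 and 46517005 reads on genes. Levels are given as CPM, the reads of a gene relative to the library total after TMM scaling, and 3 reads correspond to at most 0.101 CPM, so each of the 10 genes lay far above the counting floor. Differences are log2 fold changes of PTEC DN RAR over Cre– controls with their standard errors (SE), and a call is an adjusted p under 0.05 from edgeR's quasi-likelihood test over 15440 genes. Of all genes, 17.1% were called lower and 23.6% called higher. The gate marker Itgam, which encodes CD11B, averaged 1897 ± 139 CPM (SD, n = 3) in Cre– controls and 1217 ± 207 CPM (SD, n = 3) under PTEC DN RAR (log2 fold change -0.64, SE 0.14, adjusted p = 0.00818 by edgeR). Rara, the gene for RARα, differed by less than the test's threshold (log2 fold change -0.33, SE 0.13, adjusted p = 0.0628 by edgeR), and the counts cannot tell its own transcript from that of the transgene. Mitochondrial genes took 5.03% to 8.77% of reads in the Cre– controls and 10.4% to 12.1% in the PTEC DN RAR libraries, and their part in the results was not tested. In RNA of a whole cell fraction, fewer cells of a type and less RNA per cell cannot be told apart.

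Gpnmb, Fabp5, Trem2, Lgals3 and Spp1 were lower, Gpnmb by 7.65-fold and Fabp5 by 4.40-fold, and Apoe, Cd9, Cd63, Lpl and Tyrobp were not called. Of the 10 genes, 5 were lower and 0 higher, beside 17.1% and 23.6% of all genes, and 5 were called in either direction, beside 40.6%. Without a multiple-test adjustment the count of higher genes at p under 0.05 was also 0, and it was 0 with DESeq2 and with limma-voom. In 5 of 10 genes every PTEC DN RAR library lay below every Cre– control, against 24.2% of all genes, in 0 of 10 every one lay above (29.2% of all genes), and 53.4% of all genes had groups without overlap in either direction. The median log2 fold change of the 10 genes was -0.56, beside 0.04 over all genes tested. The count of 5 lower genes rests on Spp1 and Lgals3. It was 3 without Cre– control replicate 1, without Cre– control replicate 3, without PTEC DN RAR replicate 1 and without PTEC DN RAR replicate 2, and also with libraries scaled on pan-leukocyte or on macrophage genes, and Gpnmb, Fabp5 and Trem2 passed in all 14 alternatives. Without Cre– control replicate 1, and with libraries scaled on pan-leukocyte or macrophage genes, 2 genes (Cd9 and Cd63) were called higher. In those fits 3699 of 15966, 5163 of 15440 and 4053 of 15440 genes were called higher, in that order. With the pan-leukocyte and macrophage scalings 689 and 820 genes were called lower.

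**Figure D1:**
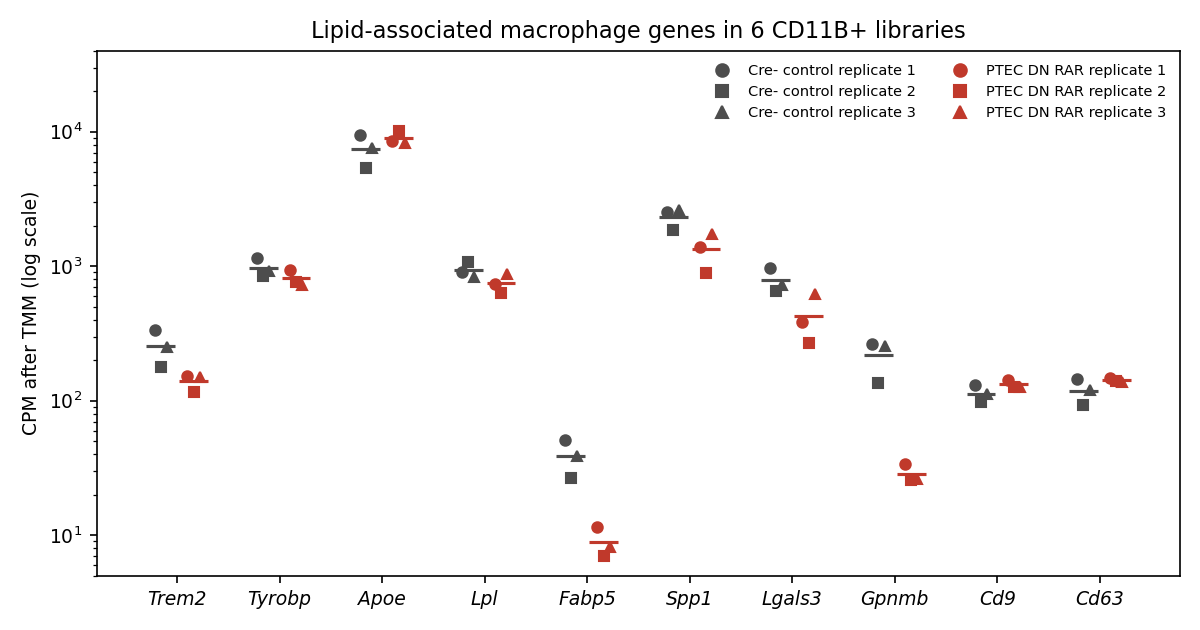
Level of each of the 10 genes (CPM after TMM, log scale) in the 6 libraries, with the replicate number as the shape of the point and the mean of 3 libraries as a line. The groups of Gpnmb and Fabp5 lie far apart, those of Trem2, Spp1 and Lgals3 closer, and those of Apoe, Cd9, Cd63, Lpl and Tyrobp overlap.

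**Figure D2:**
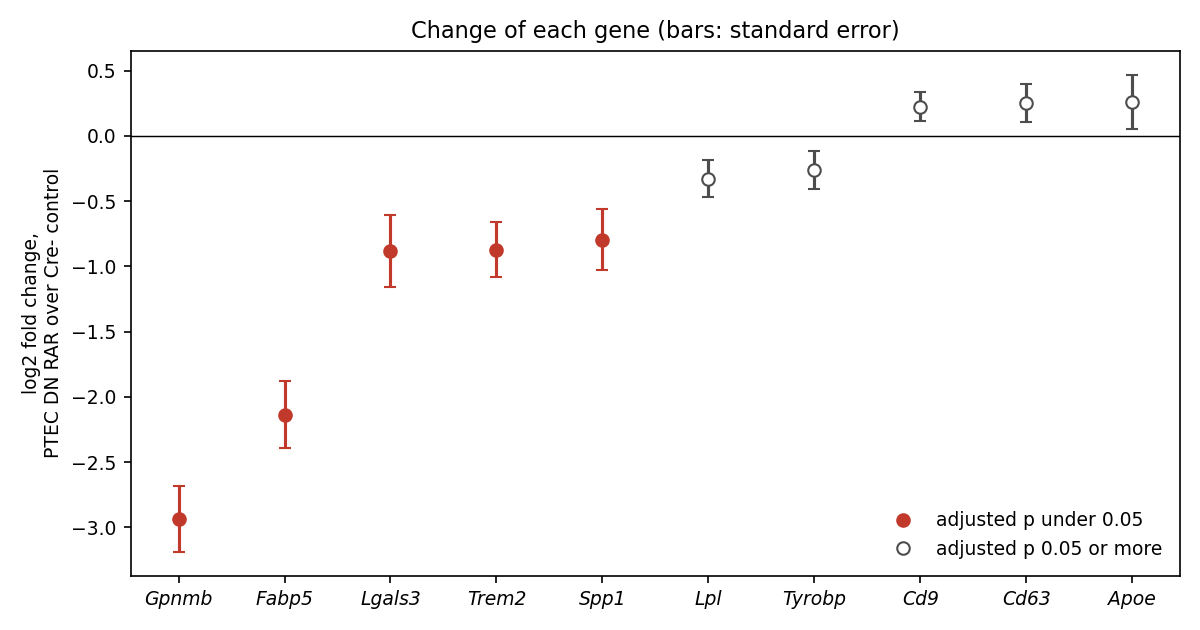
Log2 fold change of each gene (y axis, PTEC DN RAR over Cre– control, n = 3 libraries each) with its standard error as a bar, in order of size. Values ran from -2.93 for Gpnmb to 0.26 for Apoe, and filled points passed an adjusted p of 0.05 by edgeR.

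Of the receptor and its adaptor, the receptor was lower. Trem2 (ENSMUSG00000023992, chromosome 17 of GRCm38 from 48346401 to 48354147) was at 336, 177 and 252 CPM in the Cre– controls and at 152, 117 and 150 CPM in the PTEC DN RAR mice. Every PTEC DN RAR library was below the lowest control, and the gap between replicate 2 of the controls and replicate 1 of the PTEC DN RAR mice was small against the spread of the controls. The log2 fold change was -0.87 (SE 0.21, adjusted p = 0.0122 by edgeR). Tyrobp (ENSMUSG00000030579, chromosome 7 from 30413760 to 30417585), whose product also serves many other receptors of myeloid and NK cells, was at 1155, 850 and 924 CPM in the Cre– controls and at 945, 769 and 726 CPM in the PTEC DN RAR mice. The groups overlapped, with a log2 fold change of -0.26 (SE 0.15, adjusted p = 0.184 by edgeR). With 1 library left out it lay between -0.40 and -0.13, and with pan-leukocyte and macrophage scaling it was -0.04 and -0.12. Within a library, the log2 ratio of Trem2 to Tyrobp does not depend on how libraries are scaled. It was -1.78, -2.26 and -1.87 in the Cre– controls and -2.63, -2.72 and -2.28 in the PTEC DN RAR mice, without overlap but with a narrow gap between replicate 2 of the controls and replicate 3 of the PTEC DN RAR mice. The difference of -0.57 had a two-sided exact permutation p = 0.1, the smallest that 3 libraries against 3 allow.

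Gpnmb, which encodes a transmembrane glycoprotein of lysosomes and phagosomes, had the largest change of the 10 genes. Gpnmb (ENSMUSG00000029816, chromosome 6 of GRCm38 from 49036546 to 49070929) was at 263, 134 and 256 CPM in the Cre– controls and at 33.6, 25.7 and 26.2 CPM in the PTEC DN RAR mice. The PTEC DN RAR libraries lay close together, and the highest of them was far below the lowest control. The log2 fold change was -2.93 (SE 0.25, adjusted p = 0.000208 by edgeR), and it stayed between -3.23 and -2.71 in the 14 alternatives. Gpnmb can also be set against Trem2 within each library. The log2 ratio of Gpnmb to Trem2 was -0.35, -0.40 and 0.02 in the Cre– controls and -2.18, -2.18 and -2.51 in the PTEC DN RAR mice, a difference of -2.05 (two-sided exact permutation p = 0.1, the smallest possible).

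**Figure D3:**
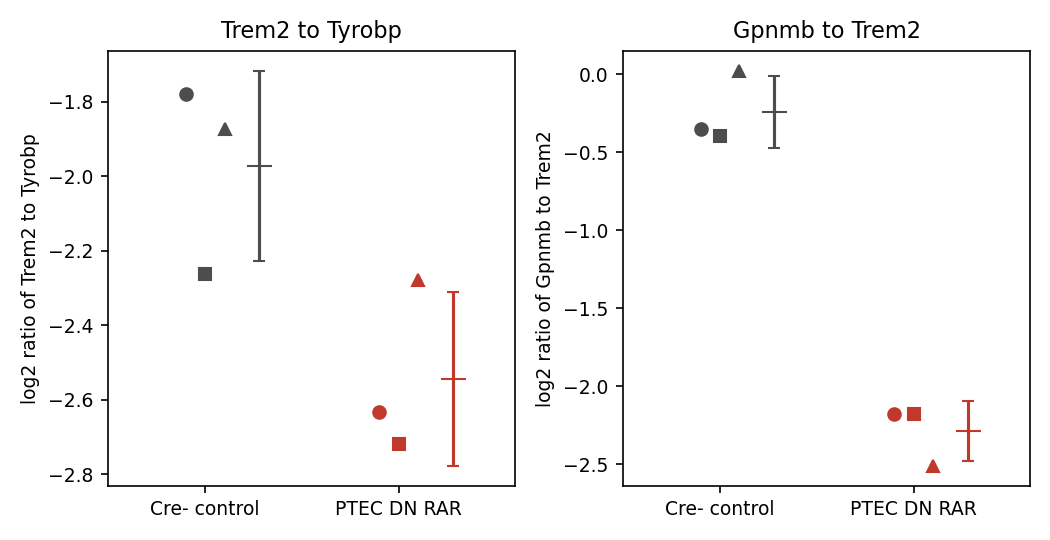
Log2 ratio of Trem2 to Tyrobp (left) and of Gpnmb to Trem2 (right) in each library, from log2 CPM with a prior count of 2, with the mean and SD of 3 libraries beside the points. The Trem2 to Tyrobp ratios differ by -0.57 between genotypes and the Gpnmb to Trem2 ratios by -2.05.

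The membrane genes Cd9 and Cd63 were not called. They encode tetraspanins, small proteins that organise other proteins in membranes, with CD9 at the cell surface and CD63 in late endosomes and lysosomes. Cd9 (ENSMUSG00000030342) was at 130, 97.6 and 112 CPM in the Cre– controls and at 143, 126 and 127 CPM in the PTEC DN RAR mice, a log2 fold change of 0.22 (SE 0.11, adjusted p = 0.149 by edgeR). Cd63 (ENSMUSG00000025351) was at 144, 92.6 and 120 CPM and at 148, 139.5 and 137 CPM, a log2 fold change of 0.25 (SE 0.15, adjusted p = 0.198 by edgeR). In both genes the highest control, replicate 1, reached into the range of the PTEC DN RAR mice. Without that control Cd9 had a log2 fold change of 0.33 (adjusted p = 0.0343 by edgeR) and Cd63 of 0.41 (adjusted p = 0.0291 by edgeR). Without Cre– control replicate 2, the lowest, these values were 0.087 (adjusted p = 0.561 by edgeR) and 0.059 (adjusted p = 0.703 by edgeR). Part of the exons of Cd9 overlaps another gene, Gm26728, on the opposite strand over 218 bases, and reads that Cd63 shares with its copy Cd63-ps were left out of its count.

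The window around the transcription start was printed for Trem2 and Gpnmb, which were lower, and for Cd63, which was not called. Trem2 and Gpnmb were picked after the motif search because they hold the motif in capitals, so the printed windows do not compare lower genes with others. Spp1 and Lgals3, which were also lower, do not hold it in their windows, so it was found in 2 of the 4 lower genes with a window. Windows of 300 bases (250 before and 50 after the start, GRCm38.p6, from RefSeq) were matched for 7 of the 10 genes, 10 windows in all with 3 for Apoe and 2 for Spp1, and those of Fabp5, Lpl and Tyrobp were not matched. Lower case is plain sequence, and capitals mark the letters of TGANTCA, a pattern that takes in the element of AP-1 factors (TGACTCA or TGAGTCA) and is wider than it. It was the only motif set in capitals. The match in Gpnmb, TGACTCA, is that element, and the match in Trem2, TGAATCA, is outside it. Trem2 lies on the plus strand at chr17:48346151-48346450, Gpnmb on the plus strand at chr6:49036268-49036567 and Cd63 on the plus strand at chr10:128909095-128909394.
Trem2: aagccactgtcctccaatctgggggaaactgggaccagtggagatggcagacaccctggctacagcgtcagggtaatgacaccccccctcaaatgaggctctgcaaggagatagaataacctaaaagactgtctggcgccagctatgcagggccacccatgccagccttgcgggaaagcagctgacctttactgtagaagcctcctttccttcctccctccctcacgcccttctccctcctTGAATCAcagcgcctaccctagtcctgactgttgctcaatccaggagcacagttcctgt
Gpnmb: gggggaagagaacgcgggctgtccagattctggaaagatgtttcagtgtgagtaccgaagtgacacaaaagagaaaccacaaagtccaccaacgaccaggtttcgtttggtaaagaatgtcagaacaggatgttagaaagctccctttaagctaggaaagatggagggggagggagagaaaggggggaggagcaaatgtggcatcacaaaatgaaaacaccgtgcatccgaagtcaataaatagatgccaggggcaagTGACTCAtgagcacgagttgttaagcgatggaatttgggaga
Cd63: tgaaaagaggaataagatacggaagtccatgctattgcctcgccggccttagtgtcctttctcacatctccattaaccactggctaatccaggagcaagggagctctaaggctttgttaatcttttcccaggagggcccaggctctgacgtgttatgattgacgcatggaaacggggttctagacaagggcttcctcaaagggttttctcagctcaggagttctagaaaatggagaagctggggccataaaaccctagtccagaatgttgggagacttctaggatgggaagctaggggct

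On both strands of these windows 5 short motifs were searched, chosen after the values and a wider set of motifs had been seen. TGANTCA was found in Trem2, at positions -9 to -3 from the start, and in Gpnmb, at positions 9 to 15, and in none of the other 5 genes with a window. It is held by 7.81% of all 32851 windows. GAGGAA, the core of the site of the myeloid factor PU.1, was in 5 of the 10 windows, of 4 genes (Trem2, Cd63, Apoe and Spp1), and in 28.3% of all windows. CACGTG, the E-box of the MiT/TFE factors that drive lysosomal genes, was in 0 of the 7 and in 7.15% of all windows. Its variant CATGTG was in Cd9 alone (14.2% of all windows), and AGGTCA, the half-site of nuclear receptors that include the RARs, was in Trem2 alone (16.3% of all windows). These motifs do not overlap one another in the windows of Trem2 and Gpnmb.

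Among the genes of lipid handling, the fatty acid chaperone was much lower and the lipoprotein genes were not called. Fabp5 (ENSMUSG00000027533, chromosome 3 of GRCm38 from 10012548 to 10016607), which carries fatty acids inside the cell, was at 50.8, 26.8 and 38.9 CPM in the Cre– controls and at 11.4, 6.95 and 8.14 CPM in the PTEC DN RAR mice. The groups were well apart, with a log2 fold change of -2.14 (SE 0.26, adjusted p = 0.000599 by edgeR). Reads that align to Fabp5 and equally to a copy elsewhere in the genome were not counted, so its level may be underestimated.

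Lpl (ENSMUSG00000015568, chromosome 8 from 68880491 to 68907448), the secreted lipase that frees fatty acids from lipoproteins, was at 903, 1079 and 834 CPM in the Cre– controls and at 737, 637 and 869 CPM in the PTEC DN RAR mice. Replicate 3 of the PTEC DN RAR mice lay among the controls, and the log2 fold change was -0.33 (SE 0.14, adjusted p = 0.0971 by edgeR). Without that library it was -0.49 (adjusted p = 0.0287 by edgeR), and with DESeq2 and all libraries it was -0.36 (adjusted p = 0.0462). With libraries scaled on pan-leukocyte or on macrophage genes it was -0.08 (adjusted p = 0.718 by edgeR) and -0.18 (adjusted p = 0.486 by edgeR). Apoe (ENSMUSG00000002985, chromosome 7 from 19696109 to 19699188), the apolipoprotein by which macrophages export cholesterol and which is also a ligand of TREM2, was the most abundant of the 10 and took the rank of 10 among all genes by mean CPM. It was at 9446, 5397 and 7618 CPM in the Cre– controls and at 8585, 10160 and 8175 CPM in the PTEC DN RAR mice. The groups overlapped, with a log2 fold change of 0.26 (SE 0.21, adjusted p = 0.341 by edgeR). It was 0.03 without Cre– control replicate 2 and 0.46 without Cre– control replicate 1, and was not called in either fit.

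Spp1 and Lgals3, which encode a matrix protein and a lectin, were lower. Spp1 (ENSMUSG00000029304, chromosome 5 of GRCm38 from 104435118 to 104441050) encodes osteopontin, a secreted matrix protein that binds integrins. It was at 2510, 1851 and 2639 CPM in the Cre– controls and at 1393, 897 and 1745 CPM in the PTEC DN RAR mice, without overlap, and its log2 fold change was -0.79 (SE 0.24, adjusted p = 0.0268 by edgeR). Its exons overlap those of Gm42793 on the same strand over 309 bases, so reads there cannot be assigned to either. Spp1 is made by tubules of the distal nephron as well as by macrophages. Markers of the thick ascending limb summed to between 1037 and 1455 CPM in the Cre– controls and between 3619 and 6994 CPM in the PTEC DN RAR mice, and their part in the level of Spp1 was not tested. Lgals3 (ENSMUSG00000050335, chromosome 14 from 47367751 to 47386160) encodes galectin-3, a lectin that is secreted and also gathers at damaged lysosomes. It was at 971, 656 and 728 CPM in the Cre– controls and at 385, 271 and 622 CPM in the PTEC DN RAR mice. Replicate 3 of the PTEC DN RAR mice came close to the lowest control, and the log2 fold change was -0.88 (SE 0.28, adjusted p = 0.0335 by edgeR). Both calls were lost in 4 of the 6 fits with 1 library left out, with adjusted p up to 0.0709 for Spp1 and 0.0988 for Lgals3 by edgeR, where the log2 fold changes stayed at or below -0.57 and -0.64. Both were also lost with pan-leukocyte scaling (Spp1 -0.55, adjusted p = 0.111, and Lgals3 -0.62, adjusted p = 0.127, by edgeR) and with macrophage scaling (adjusted p = 0.0604 and 0.0716 by edgeR), and Lgals3 with DESeq2 (adjusted p = 0.0531).

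Divided by the length of the main transcript of each gene, levels can be set beside one another. In the Cre– controls the order by mean CPM per kilobase was Apoe (5317), Tyrobp (1731), Spp1 (1548), Lgals3 (553), Trem2 (235), Lpl (228), Cd63 (107), Cd9 (92.0), Gpnmb (58.9) and Fabp5 (39.3). The ranges over 3 libraries overlapped between the neighbours Tyrobp and Spp1, Trem2 and Lpl, Cd63 and Cd9, and Gpnmb and Fabp5, and the neighbours Apoe and Tyrobp, Spp1 and Lgals3, Lgals3 and Trem2, Lpl and Cd63, and Cd9 and Gpnmb did not overlap. In the PTEC DN RAR mice Apoe (6373 CPM per kilobase), Tyrobp (1442), Spp1 (892) and Lgals3 (300.2) kept their places. Lpl (182), Trem2 (128), Cd63 (128) and Cd9 (107) followed, and Fabp5 (8.95) and Gpnmb (7.70) came last. Of neighbours in that order, the ranges overlapped between Lgals3 and Lpl, Trem2 and Cd63, and Fabp5 and Gpnmb, and no other neighbours overlapped. Reads on exons outside the main transcript are part of these counts, which can raise the values of genes with long alternative exons.

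The libraries of 1 genotype also differed from each other in a shared way. Of the 10 genes, 8 were highest in replicate 1 of the Cre– controls and 9 were lowest in replicate 2, the exceptions being Lpl and Spp1 for the first and Lpl for the second. Among the PTEC DN RAR mice, 7 of the 10 genes were lowest in replicate 2. Spp1, Lgals3 and Lpl were highest in replicate 3 there. In that library the sum of infiltrating monocyte markers was also highest (1478 CPM, against 1225 and 1278). So were the sums of thick ascending limb (6994 CPM), distal (1415 CPM), podocyte (178 CPM) and platelet markers (47.1 CPM). Sums of macrophage, neutrophil, dendritic cell, lymphocyte, stromal and injured tubule markers were lowest there, and the mitochondrial share was highest (12.1%). Which of these go with those genes was not tested. Of 8992 genes with a mean of at least 10 CPM, those with the level most like that of Trem2 over the 6 libraries were Dbnl, Ninj1, Eif1, Tfpt and Sdc1. Their Pearson correlations with Trem2 were between 0.991 and 0.997, which is a description over points that share 2 genotypes and their depth. Since Trem2 itself was lower, this choice favours genes that were lower too, and their own change is no separate result.

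Of 15 genes of TREM2-DAP12 signaling around the receptor, 4 were called lower and 0 higher, beside 17.1% and 23.6% of all genes, with a median log2 fold change of -0.23, and no gene of the list was called higher in any of the fits with another scaling. The 4 were Syk, the kinase that docks on DAP12, Inpp5d, a lipid phosphatase that dampens it, the kinase gene Btk and Adam10, whose product sheds TREM2 from the cell surface. Btk was at 112 and 68.8 CPM on average in Cre– controls and PTEC DN RAR mice (log2 fold change -0.70, SE 0.08, adjusted p = 0.000486 by edgeR), Adam10 at 292 and 227 CPM (-0.37), Inpp5d at 508 and 412 CPM (-0.30) and Syk, named after its value was seen, at 407 and 340 CPM (-0.26). Ptpn6, the most abundant gene of the list, was at 533 and 522 CPM (adjusted p = 0.839 by edgeR). With libraries scaled on pan-leukocyte or on macrophage genes, 1 gene of this list was lower, as without Cre– control replicate 3, and 2 were lower without PTEC DN RAR replicate 1, 2 or 3. Of all 15440 genes, 689 and 820 were lower with those scalings.

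Of 15 genes of lipid uptake, storage and efflux, 6 were called lower and 3 higher, beside 17.1% and 23.6% of all genes (median log2 fold change -0.22). Plin2, which coats lipid droplets, was at 377 CPM in Cre– controls and 178 CPM in PTEC DN RAR mice (log2 fold change -1.08, SE 0.16, adjusted p = 0.00149 by edgeR). Cd36, a fatty acid and oxidised lipoprotein receptor, was at 701 and 367 CPM (-0.93), and Abca1, which exports cholesterol to apolipoproteins, at 489 and 272 CPM (-0.84). Lipa, the acid lipase of lysosomes, was at 815 and 597 CPM (-0.45), and Npc2, its partner in releasing cholesterol, at 1227 and 1001 CPM (-0.29, adjusted p = 0.0822 by edgeR). The 3 higher genes, named after their values were seen, were Nr1h3, which encodes the oxysterol receptor LXRα (11.9 and 20.1 CPM), Fabp3 (2.65 and 9.03 CPM) and Fabp4 (6.34 and 10.6 CPM). Fabp3 and Fabp4 rose by 1.76 and 0.74 on the log2 scale, and their relative Fabp5 fell by 2.14. The count of 3 was 1 without Cre– control replicate 3 and 1 without PTEC DN RAR replicate 2. With pan-leukocyte scaling 6 were higher and 3 lower, beside 5163 higher and 689 lower of all 15440 genes. Fabp3 and Fabp4 are also genes of muscle, tubule and endothelium, and the endothelial markers in the same libraries are given below.

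**Figure D4:**
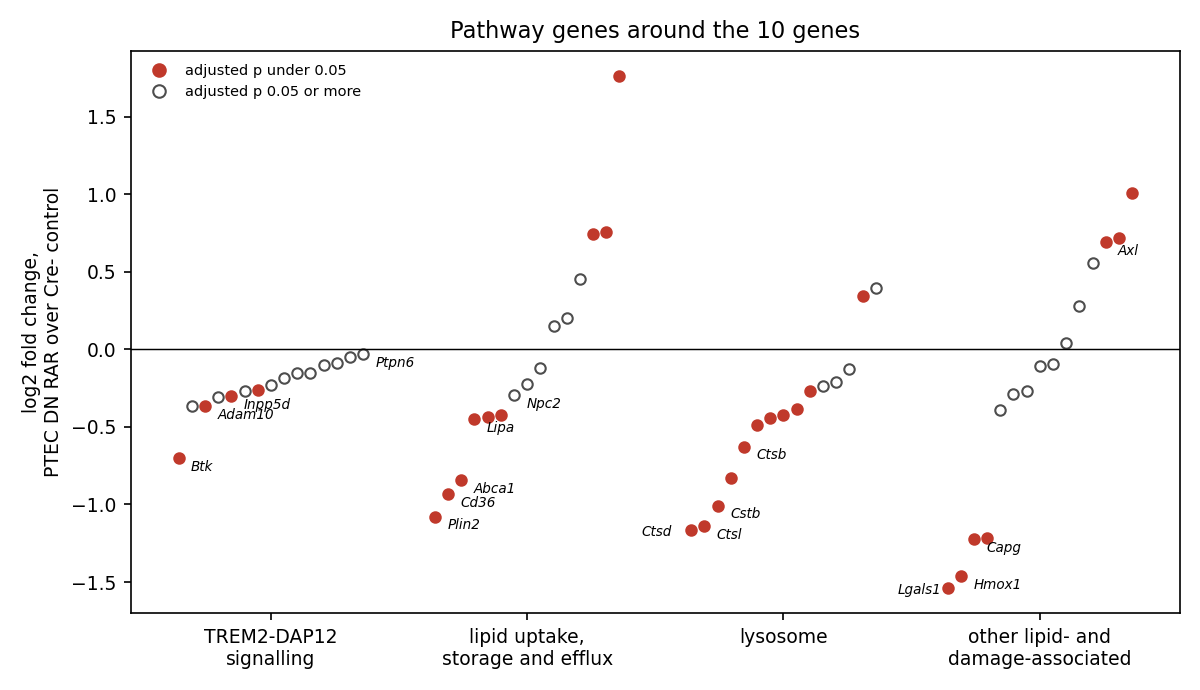
Log2 fold change (y axis, PTEC DN RAR over Cre– control, n = 3 libraries each) of every gene in 4 lists of 15 genes around the TREM2 program, sorted within each list, with genes that passed an adjusted p of 0.05 by edgeR filled. The lysosome list holds 10 lower genes and 1 higher gene, and the signaling list holds 4 lower and 0 higher genes, with Btk lowest.

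Of 15 lysosomal genes, 10 were called lower and 1 higher, beside 17.1% and 23.6% of all genes (median log2 fold change -0.42). With libraries scaled on pan-leukocyte or on macrophage genes 5 were lower and 2 higher. Of all 15440 genes, 689 and 820 were lower and 5163 and 4053 higher with those scalings. Ctsd, a protease of lysosomes, was at 5051 CPM in Cre– controls and 2255 CPM in PTEC DN RAR mice (log2 fold change -1.16, SE 0.19, adjusted p = 0.0022 by edgeR), Ctsl at 524 and 238 CPM (-1.14), and Cstb, which encodes a cathepsin inhibitor, at 166 and 82.3 CPM (-1.01). Ctsb, the most abundant of the list, was at 7740 and 5009 CPM (-0.63). The other cathepsin genes of the list, named after their values were seen, were not called, with Ctss at 3170 and 2746 CPM (adjusted p = 0.194 by edgeR) and Ctsz at 895 and 819 CPM (adjusted p = 0.351 by edgeR). Mitf, named after its value was seen, encodes the factor known to drive Gpnmb, and was at 62.3 and 35.0 CPM (log2 fold change -0.83, SE 0.11, adjusted p = 0.00106 by edgeR). Its relative Tfeb, the 1 higher gene, was at 49.1 and 62.3 CPM (0.34, adjusted p = 0.0289 by edgeR). No gene of the list was called higher by edgeR without Cre– control replicate 2, Cre– control replicate 3 or PTEC DN RAR replicate 1.

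Of 15 other genes of lipid- and damage-associated macrophages, 4 were lower and 3 higher, beside 17.1% and 23.6% of all genes (median log2 fold change -0.11). With pan-leukocyte scaling 6 were higher and 4 lower, and of all 15440 genes 5163 were higher and 689 lower. Lgals1, which encodes galectin-1, was at 572 CPM in Cre– controls and 197 CPM in PTEC DN RAR mice (log2 fold change -1.54, SE 0.22, adjusted p = 0.00136 by edgeR). Hmox1, the heme-degrading enzyme, was at 1238 and 449.7 CPM (-1.46), and Capg, an actin-capping protein of macrophages, at 423 and 181 CPM (-1.23). The fourth lower gene, named after its value was seen, was Il1rn, the interleukin-1 receptor antagonist (-1.22). Axl, a receptor for dying cells, was higher, at 936 and 1513 CPM (0.69, SE 0.13, adjusted p = 0.00442 by edgeR), and the others, named after their values were seen, were the adhesion gene Cadm1 (1.01) and Cd22, a receptor for sialic acids (0.72).

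Marker RNA of several other cell types differed between genotypes in the same libraries. Sums of macrophage markers overlapped between genotypes. The 9 markers summed to between 13201 and 14827 CPM in the Cre– controls and between 12142 and 15224 CPM in the PTEC DN RAR mice, with 3 of 9 lower and 0 higher. Adgre1, which encodes F4/80, was at 1441 and 1536 CPM on average. Ptprc, the pan-leukocyte CD45 gene, was at 948 and 879 CPM, and of the pan-leukocyte list 6 of 19 tested genes were lower and 0 higher (median log2 fold change -0.22). Markers of infiltrating monocytes were lower in 7 of 8 genes, with sums between 2589 and 2846 CPM against 1225 to 1478 CPM, and those of neutrophils in 5 of 10 genes, with sums between 471 and 849 CPM against 299 to 426 CPM. Platelet markers were lower in 2 of 4 tested of 6, with sums between 279 and 412 CPM against 35.3 to 47.1 CPM. Nearly all of that sum was Pf4, which macrophages also express, at 332 and 38.7 CPM, and the other called gene, Ppbp, a chemokine gene of platelets, was at 27.0 and 1.32 CPM. Itga2b, at 1.45 and 1.48 CPM, and Tubb1, at 0.44 and 0.34 CPM, were not called. Ppbp, Itga2b and Tubb1 were named after their values were seen. Whether numbers of monocytes, neutrophils or platelets differed cannot be told from these sums. The part of these cells in the lower Gpnmb, Fabp5, Trem2, Spp1 and Lgals3 was not tested.

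Many marker transcripts of other kidney cells were higher. All 12 proximal tubule markers were called higher, with sums between 609 and 829 CPM in the Cre– controls and between 1899 and 2955 CPM in the PTEC DN RAR mice. Slc34a1 was at 183 and 769 CPM and Lrp2 at 75.6 and 239.9 CPM. All 6 thick ascending limb markers were higher, among them Umod at 1055 and 4534 CPM and Slc12a1 at 128 and 763 CPM, and 4 of 8 distal tubule and collecting duct markers, 6 of 6 endothelial, 4 of 5 podocyte and 4 of 6 stromal markers. The collecting duct genes Aqp2, Hsd11b2, Scnn1g and Fxyd4, named after their values were seen, were not called. Sums of distal markers were between 236 and 389 CPM against 767 to 1415 CPM, of endothelial markers between 64.5 and 99.4 CPM against 196 to 241 CPM, of podocyte markers between 51.1 and 82.2 CPM against 146 to 178 CPM and of stromal markers between 86.5 and 99.3 CPM against 112 to 195 CPM. Of 7 markers of injured tubule 1 was higher, and Havcr1, which encodes Kim1, was at 9.93 and 8.13 CPM. Of 6 dendritic cell markers 1 was lower and 2 were higher, with overlapping sums. Named after their values were seen, the higher were Xcr1 (1.79 and 9.77 CPM) and Clec9a (10.3 and 25.6 CPM). The lower was Ccr7 (31.9 and 19.1 CPM). Lymphocyte markers summed to at most 6.31 CPM in any library. Apoe, Cd9, Cd63 and Lpl are also expressed in tubule, endothelium or stroma, and the part of these cells in their values was not tested. Marker levels and genotype cannot be told apart where they differ in every library.

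**Figure D5:**
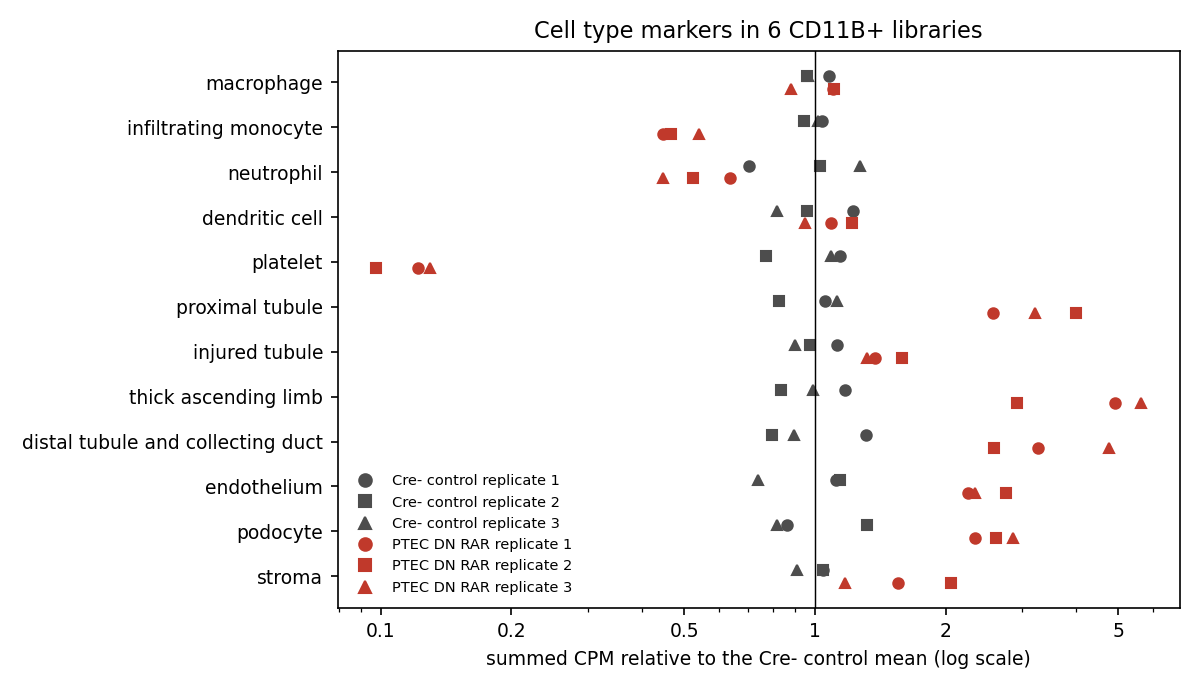
Summed CPM of each marker list in each library, relative to the mean of the 3 Cre– controls (x axis, log scale), with the replicate number as the shape of the point. Macrophage markers overlap between genotypes, monocyte and platelet markers are lower in every PTEC DN RAR library, and tubule, endothelial and podocyte markers are higher in every one.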

How the data were processed

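The authors deposited raw read counts per Ensembl gene for 6 libraries. The submitters' processing notes name STAR 2.5.0a, HTSeq 0.6.1, edgeR, limma and GRCm38. Reads aligned to several places (42.9% to 47.8% of alignments) or to no single gene are left out of gene counts, which lowers genes with near-identical copies. Lines for such reads took 46.4% to 50.6% of all alignments and were removed. Libraries of 1 genotype differed beyond counting noise (chi-square per degree of freedom at least 27.1), so none is a copy of another, which does not show that they came from separate mice. Of 46612 gene lines, 9 repeats were collapsed. Libraries were grouped by title, which their genotype labels match.

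Genes were filtered (filterByExpr), scaled by TMM and tested by the quasi-likelihood functions glmQLFit and glmQLFTest (edgeR 4.0.16, R 4.3.3), and p-values were adjusted by Benjamini-Hochberg across the whole table. Log2 ratios used a prior count of 2. Alternatives used limma 3.58.1 (voom), DESeq2 1.42.0, other filters and scalings, the replicate number as a block, and each library left out. On data simulated from these libraries (15440 genes, 200 changed), edgeR called 70% of genes changed 2-fold and 95% of those changed 4-fold, with 14 unchanged genes called. Far fewer genes were changed in that simulation than the 40.6% called here, so its rates may not hold for these data. Lengths and coordinates come from GENCODE M21 (GRCm38). Whether reads were counted by strand is not given in the sources used here. The members and lists were chosen with earlier results of these data known. Pathway genes were named by a rule: per list, the 3 called genes with the largest change at 10 CPM or more and the 2 most abundant.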

Additional observations from a re-analysis of the deposited data

How the results depend on the processing

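Gpnmb, Fabp5 and Trem2 kept their direction and their call in all 14 alternatives, with log2 fold changes from -3.23 to -2.71, from -2.39 to -1.90 and from -1.12 to -0.63. Spp1 lost its call in 6 and Lgals3 in 7 of 14, Cd9 and Cd63 gained one in 3 each and Lpl in 2, and none of the 10 genes changed direction. Reference scaling moved the median of all genes by 0.23 (pan-leukocyte list) and 0.14 (macrophage list) on the log2 scale, and the share of calls that were higher from 58.0% to 88.2% and 83.2%. With pan-leukocyte and macrophage scaling alike, 3 of the 10 genes were lower and 2 (Cd9 and Cd63) higher, 1 signaling gene, 3 lipid genes and 5 lysosomal genes were lower and 2 lysosomal genes higher. With the pan-leukocyte list 6 lipid genes and 6 other lipid- and damage-associated genes were higher, and 689 of all genes were lower, against 820 with the macrophage list and 2636 with TMM. Of all genes, 5163 were higher with the pan-leukocyte list, 4053 with the macrophage list and 3640 with TMM. With DESeq2, without a filter, with at least 10 counts in every library and with library size, 2 lysosomal genes were higher.

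With each library left out in turn, between 3 and 6 of the 10 genes were lower and between 0 and 2 higher. Lower signaling genes ranged from 1 to 5, higher lipid genes from 1 to 4 and higher lysosomal genes from 0 to 1. The differences in log2 ratio stayed between -0.72 and -0.48 for Trem2 to Tyrobp and between -2.12 and -1.91 for Gpnmb to Trem2. The deviations of same-numbered libraries from their group means correlated at -0.01, 0.21 and 0.03 for replicates 1, 2 and 3. Of these, 1 was over 0.1, and replicate 1 and replicate 3 did not correlate best with their own number, so the numbers were not taken to pair the libraries. With the replicate number as a block 5 genes of the 10 were lower and 0 higher, and no call of the 10 genes changed.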
